A study of Mus musculus with 12 samples.

Results

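The comparison described here is that of ApoE4 synj1+/- with ApoE4 synj1+/+ spinal cord above a contusion, taken over all genes. Its members are the rows of the deposited table that set these groups against each other above the lesion, and they number 13647 of the 25985 rows of both sites. The mice were male, 4 months old and expressed human ApoE4. Those labelled synj1+/+ had both normal alleles of synaptojanin 1, and those labelled synj1+/- had 1 inactive allele. All received a motor-incomplete contusion at thoracic level 9, and tissue next to the lesion epicentre on its rostral side was collected at 14 days from 3 animals per group. No sham group and no ApoE3 group enters this comparison, so every value comes from injured ApoE4 tissue.

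Synaptojanin 1 is a lipid phosphatase that removes phosphates from phosphatidylinositol 4,5-bisphosphate (PIP2), a lipid of the inner face of the cell membrane. It is best known at nerve terminals, where it lets clathrin-coated vesicles shed their coat after endocytosis. Apolipoprotein E carries cholesterol and other lipids and is made in the cord mainly by astrocytes and, after injury, by microglia and macrophages. A contused cord 2 weeks after injury normally holds reactive astrocytes, activated microglia, macrophages that entered from the blood, and a forming scar of matrix.

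Each group has 1 deposited value per gene, pooled over its 3 libraries. No spread between mice and no depth of a library can therefore be given, the authors' own p-values were not used, and each difference below is between 2 pooled values. FPKM are fragment counts divided by transcript length and by library depth, here on an upper-quartile scale, and they summed to 1686200 under the label synj1+/+ and 1676650 under the label synj1+/-. The values are not comparable between genes. Median FPKM was 9.32 in the 1268 genes with 1 transcript model in the annotation and 343 in the 334 genes with more than 16 models. Levels are therefore read within a gene, between the groups. The filter on low values, the bins by level and the summed FPKM below do use levels across genes, and carry this limit. Where a pair of values is given, that of the group labelled synj1+/+ stands first. Differences are log2 of FPKM plus 1 under the label synj1+/- over the same under the label synj1+/+, and negative values are lower under the label synj1+/-.

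The tissue was checked against defining markers. Neuronal SNAP25 had an FPKM of 5238 under the label synj1+/+ and 6247 under the label synj1+/-, astrocytic GFAP 12974 and 10583, and the myelin gene MOG 282 and 248. The myelin gene MBP had no row here. None of 17 lymphocyte genes was listed, 1 of 13 skeletal muscle genes was listed, under the filter on low values. Of 10 Schwann cell genes 6 were listed and 3 passed the filter, PMP22 at 925 and 831, DRP2 at 120 and 110 and CDH19 at 38.8 and 30.4, while PRX was not listed.

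SYNJ1 went against the genotype label at both sites. The gene lies at chr16:90936092-91011308 on the minus strand (GRCm38), and its FPKM was 1904 under the label synj1+/+ and 2403 under the label synj1+/-, a log2 difference of 0.34. Below the lesion it was 1846 and 2592 (0.49), in the same order. Loss of the transcript of 1 allele would give a lower value. The table does not show where in the gene the reads lie, and whether the inactive allele still makes transcript was not tested. All directions below follow the labels as deposited and carry this doubt.

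A total of 10232 genes passed a filter on low values (mean FPKM of at least 12.2). Their median difference was 0.0014, 5157 were higher and 5075 lower under the label synj1+/-, and the 5th and 95th percentiles of their differences were -0.34 and 0.26. At 1.5-fold, 43 genes were higher, 0.42% of those passing the filter, and 110 were lower, 1.08% of them. At a looser limit, a log2 difference of at least 0.32 either way, 291 were higher (2.84%) and 583 lower (5.7%). These percentages are the background for the gene lists that follow. The lists were chosen with earlier results known, and their counts are given without a test. Lower genes outnumbered higher ones at either limit. Because the filter takes the mean of the groups, some genes passed it only through the group where they are higher. Among the lower genes named below, examples are OPRM1, HSPA1B, ZBTB16, TGM1, RPS21, RNU2-10, SAA3 and DEFB47. GNG13 is an example among the higher genes. The calls of such genes carry this limit.

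**Figure D1:**
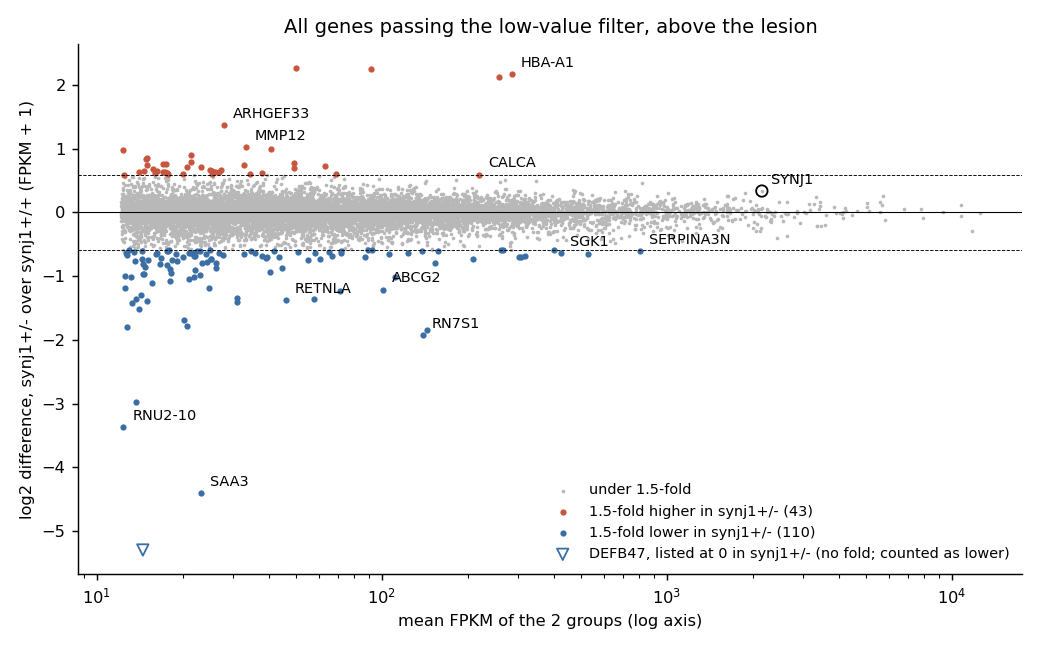
Difference between the groups (vertical, log2 of FPKM plus 1, synj1+/- over synj1+/+) against the mean FPKM of the groups (horizontal, log axis) for 10232 genes above the lesion. Dashed lines mark 1.5-fold, red points are the 43 higher genes, blue the 110 lower ones (the open triangle is DEFB47, which is listed at 0 in synj1+/- and has no fold), and the ringed point is SYNJ1 at 0.34.

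Most 1.5-fold calls came from low values. With the genes divided by level into 4 bins of equal number, in the lowest bin, with a mean FPKM between 12.2 and 27.5, 28 were higher and 64 lower. In the highest bin, from 138 up, 3 were higher and 15 lower. The 5th and 95th percentiles of the differences narrowed from -0.43 and 0.32 in the lowest bin to -0.27 and 0.21 in the highest.

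Genes of microglia and macrophages were lower as groups under the label synj1+/-. Microglia are the resident phagocytes of the cord, and at rest they carry a set of sensing receptors. Of 15 homeostatic microglia genes, 14 passed the filter, with a median difference of -0.34 against 0.0014 for all genes. Of these, 12 were lower and 2 higher, 7 were lower and none higher past the looser limit. FCRLS, an Fc receptor-like protein typical of microglia, was 108 and 66.0 FPKM under the labels synj1+/+ and synj1+/-, a difference of -0.71. CSF1R, the receptor for the growth factor on which microglia depend, was 181 and 136 (-0.41). The list did not move as 1 block. P2RY12, an ADP receptor of resting microglia, was 97.6 and 92.9 (-0.07), and SALL1 (0.04) and SIGLECH (0.06) were no lower.

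Of 24 macrophage and pan-myeloid genes, 20 were listed and 16 passed the filter, with a median of -0.40. Of the 16, 14 were lower, 11 of them past the looser limit and 2 by 1.5-fold. ADGRE1, which encodes the macrophage surface protein F4/80, was 30.9 and 15.1 FPKM (-0.98). LYZ2, the lysozyme of myeloid cells, was 380 and 234 (-0.70), and MPEG1, a pore-forming protein of phagocytes, was 332 and 230 (-0.53). PTPRC, the pan-leukocyte protein CD45, was 51.3 and 35.8 (-0.51). CD36, a scavenger receptor that also occurs outside myeloid cells, stood opposite at 47.0 and 65.3 (0.46). In bulk tissue, fewer cells of a type and less RNA per cell cannot be told apart.

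Genes of the disease-associated microglia state, which phagocytes take on around damaged myelin and plaques, had a smaller median of -0.24 over 15 passing members of 18. TYROBP, the signalling adaptor of TREM2, was 87.8 and 55.9 FPKM (-0.64). TREM2 itself, a lipid-sensing receptor, was 314 and 208 (-0.59), and CST7 was 30.8 and 21.3 (-0.52). Osteopontin (SPP1) was 1038 and 870 (-0.25). Lysosomal genes had a median of -0.17 over 28 genes, 25 of them lower, none by 1.5-fold and 5 past the looser limit. The largest were CTSH (95.6 and 70.2), HEXA (113 and 85.1), CTSZ (162.7 and 122.7) and GRN (239 and 190), which encode hydrolases and progranulin.

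The complement list held 3 of the 1.5-fold genes. C1QA, C1QB and C1QC encode the chains of C1q, which starts the classical pathway and is made in nervous tissue mostly by microglia. Their FPKM was 484, 319 and 643 under the label synj1+/+ and 322, 212 and 410 under the label synj1+/-, differences of -0.59, -0.59 and -0.65. C4B, the next component and mainly astrocytic, was 1575 and 1195 (-0.40). Of 11 passing members, 9 were lower, 5 past the looser limit, with a median of -0.23. CD59A and CD55, which restrain complement on the body's own cells, were not lower (0.13 and 0.03). For the phagocyte NADPH oxidase, which makes superoxide, all 6 genes were listed and all 6 were lower. They ran from CYBB at 11.8 and 7.47 (-0.59, under the filter) through NCF1 at 45.2 and 34.7 (-0.37), NCF4 (-0.32) and RAC2 (-0.30, under the filter) to CYBA at 27.69 and 25.995 (-0.09).

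Of the genes of largest difference, some are known from inflamed tissue. They were picked out after their values were seen, and were not a list. RETNLA, a secreted protein of alternatively activated macrophages, was 66.9 FPKM under the label synj1+/+ and 25.1 under the label synj1+/- (-1.38). SAA3, an acute-phase protein made locally in inflamed tissue, was 45.3 and 1.19 (-4.40). MMP12, the macrophage elastase, stood opposite at 21.7 and 45.0 (1.02). The neutrophil list could hardly be read. CSF3R, the receptor for granulocyte colony-stimulating factor and the only neutrophil gene of 11 that passed the filter, was 367 and 281 (-0.39), short of 1.5-fold. S100A9 (0.05) and S100A8 (0.12), the other members listed, were under the filter and not lower.

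Chemokine and interferon lists did not follow the myeloid lists. Of 12 passing interferon-stimulated genes, 9 were higher, with a median of 0.09. IFIT3, an antiviral protein of this response, was 118 and 168 FPKM (0.50) and OASL2 was 50.5 and 64.8 (0.35). IRF7, a transcription factor of the same response, was 43.7 and 27.8 (-0.63). Of 17 chemokine and receptor genes listed, 7 passed the filter, with a median of -0.02. CXCL16 was 33.8 and 22.6 (-0.56) and CXCL12 was 45.5 and 57.5 (0.33). Antigen presentation had a median of -0.13 over 10 genes, none past the looser limit, with B2M at 417 and 369 (-0.17) and CD74 at 24.3 and 29.6 (0.27).

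**Figure D2:**
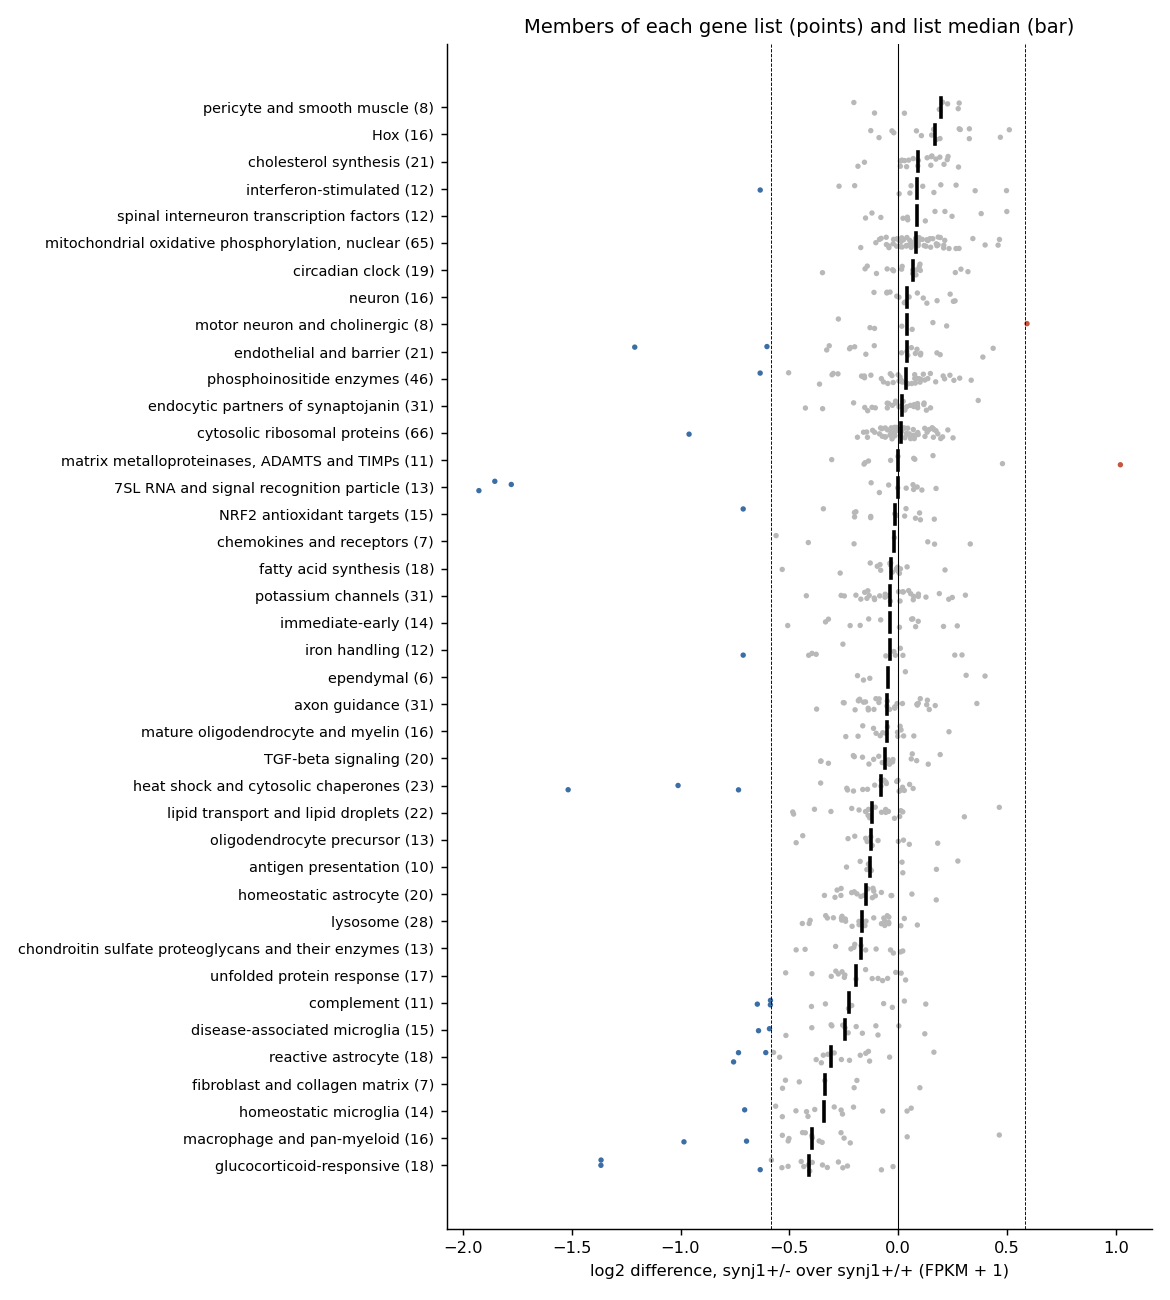
Difference between the groups (horizontal, log2 of FPKM plus 1, synj1+/- over synj1+/+) for each member (points) of the gene lists with at least 6 genes passing the filter, given in parentheses, with the list median as a bar and blue or red points past 1.5-fold. Medians run from -0.41 for the glucocorticoid-responsive list to 0.20 for pericytes and smooth muscle. The list of predicted Gm genes, with 44 passing genes, and the hemoglobin list, with 4, are not drawn.

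Astrocyte genes were also lower. Astrocytes react to injury by raising intermediate filaments and secreted acute-phase proteins. Of 18 reactive astrocyte genes passing the filter, 17 were lower, 9 past the looser limit and 3 by 1.5-fold, with a median of -0.31. SERPINA3N, a secreted protease inhibitor, was 972 and 637 FPKM (-0.61). OSMR, the oncostatin M receptor, was 25.8 and 17.0 (-0.57), and TGM1 was 17.3 and 9.86 (-0.76). GFAP, the filament protein by which reactive astrocytes are recognised, was 12974 and 10583 (-0.29), short of the looser limit. It lies in the highest bin by level, where the 5th percentile of differences was -0.27. The 20 homeostatic astrocyte genes had a median of -0.15, with 18 lower and none by 1.5-fold. Among them the water channel AQP4 was 2343 and 1916 (-0.29) and the glutamate transporter SLC1A2 was 1651 and 1359 (-0.28). Some astrocyte genes are shared with other lists. Of the reactive genes, FKBP5 and LCN2, both under the filter, HSPB1 and CP also belong to lists below, and H2-D1, PSMB8 and IIGP1 to lists above. Of the homeostatic genes, GLUL is also in the glucocorticoid list and KCNJ10 in the potassium channel list.

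Scar matrix could be read in part. The fibroblast and collagen list had 27 of 35 genes listed, of which 7 passed the filter, with a median of -0.34. FN1, fibronectin, was 229 and 158 FPKM (-0.53), IGF2 was 89.4 and 62.1 (-0.52), and SERPINH1, the collagen chaperone HSP47, was 142 and 103 (-0.45). The fibrillar collagen COL3A1 was under the filter at 4.25 and 0.73. Over all 27 listed genes, 22 were lower. The list of chondroitin sulfate proteoglycans, which limit axon growth in scar, also held their enzymes, link proteins and the tenascins TNR and TNC. Its median was -0.17 over 13 genes. The tenascins, which are not proteoglycans, had its largest differences, TNR at 167 and 121 (-0.47) and TNC at 24.4 and 17.9 (-0.43). Of the proteoglycans that passed, NCAN was at -0.29, VCAN at -0.20, PTPRZ1 at -0.15, CSPG5 at 0.01 and BCAN at 0.02. TIMP1 was 22.7 and 18.1 (-0.31), and ADAMTS4, which cleaves proteoglycans such as BCAN, was 12.95 and 18.45 (0.48).

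Glucocorticoid-responsive genes had the lowest median of the lists with at least 6 passing genes. Glucocorticoids act through a nuclear receptor, encoded by NR3C1, that binds DNA at paired sites and switches on a set of genes shared by many tissues. Of 27 such genes 26 were listed and 18 passed the filter. All 18 were lower under the label synj1+/-, 13 of them past the looser limit and 3 by 1.5-fold, and their median was -0.41. ZBTB16, a transcription factor, was 20.1 and 7.20 FPKM (-1.37), and PLIN4, a lipid droplet coat protein, was 83.7 and 31.9 (-1.37). SGK1, a kinase induced by glucocorticoids and mineralocorticoids, was 519 and 334 (-0.63). CDKN1A, a cell cycle inhibitor, was 107 and 71.2 (-0.58), and KLF15, a transcription factor of metabolism, was 225 and 158 (-0.51). Metallothionein MT1 was 2756 and 2096 (-0.39) and PER1 was 84.4 and 66.1 (-0.35). NR3C1 itself was 256 and 252 (-0.02). Of the 8 listed genes under the filter, FKBP5, a receptor co-chaperone, was 13.7 and 7.47, HIF3A was 12.7 and 5.96, and LCN2, at 5.49 and 6.59, was the only member higher.

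Reference promoters were searched for the palindromic glucocorticoid element, the blocks AGAACA and TGTTCT with 3 bases between them, which reads the same on both strands. Of 8230 genes that passed the filter and had a RefSeq promoter (250 bases before to 50 after a start), 1 gene held it, 0.0122% of them. That gene was SGK1, so 1 of 16 glucocorticoid-responsive genes with a promoter held it. The match is a description of this window and no evidence of binding. The 250 bases before the SGK1 start, chr10:21993640-21993889 on the plus strand of GRCm38.p6, are shown because SGK1 is the list's member with this element, which is in capitals.
SGK1: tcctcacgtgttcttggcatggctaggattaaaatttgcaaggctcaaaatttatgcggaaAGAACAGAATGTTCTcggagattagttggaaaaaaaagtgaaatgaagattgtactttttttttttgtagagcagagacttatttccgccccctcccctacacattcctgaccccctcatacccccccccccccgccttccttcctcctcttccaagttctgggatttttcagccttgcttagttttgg

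Heat shock genes differed in a few members. Heat shock proteins keep other proteins folded, and the inducible HSP70 genes HSPA1A and HSPA1B are near silent in unstressed tissue. HSPA1B was 21.2 and 6.78 FPKM (-1.52) and HSPA1A was 149 and 73.4 (-1.01). The small heat shock protein HSPB1 was 261 and 157 (-0.73) and the HSP40 gene DNAJB1 was 51.7 and 40.1 (-0.36). The list's median over 23 genes was -0.08, 4 were lower and none higher past the looser limit, and other members were close in the groups, as HSP90AA1 at 603 and 605 and HSF1, the factor that drives the response, at 230 and 229. Genes of the unfolded protein response in the endoplasmic reticulum had a median of -0.19 over 17 genes, 15 of them lower. SDF2L1 was 46.4 and 32.1 (-0.52) and HSPA5, the chaperone BiP, was 398 and 302 (-0.40), while ATF4 was 132 and 131.

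The heat shock element GAANNTTC, the shortest inverted pair of the repeat bound by HSF1, reads the same on both strands. It lay in the promoter of 11 of 19 heat shock genes with a RefSeq promoter and of 585 of all 8230 genes (7.11%). The members that held it were HSPA1A, HSPA1B, HSPB1, HSPB8, HSPH1, HSPD1, HSPE1, DNAJA1, BAG3, CHORDC1 and FKBP4, which range in difference from -1.52 to 0.07, so the element occurred in members with and without a difference. HSPA1A and HSPA1B are shown to make clear how alike the copies are. Their 250 bases before the start, chr17:34972157-34972406 and chr17:34959239-34959488, both on the minus strand of GRCm38.p6, differ at 3 positions. Reads of near-identical copies may be divided between them, so the level of each copy is uncertain. Capitals mark the element.
HSPA1A: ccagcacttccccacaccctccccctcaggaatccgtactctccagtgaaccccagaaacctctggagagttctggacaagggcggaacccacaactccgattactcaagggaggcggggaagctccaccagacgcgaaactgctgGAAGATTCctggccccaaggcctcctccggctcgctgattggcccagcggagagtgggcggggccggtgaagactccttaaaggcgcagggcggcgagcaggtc
HSPA1B: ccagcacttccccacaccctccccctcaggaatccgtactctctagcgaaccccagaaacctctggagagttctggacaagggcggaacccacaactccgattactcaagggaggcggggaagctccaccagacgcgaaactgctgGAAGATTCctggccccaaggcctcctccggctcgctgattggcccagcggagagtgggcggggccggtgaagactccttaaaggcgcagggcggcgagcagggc

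**Figure D3:**
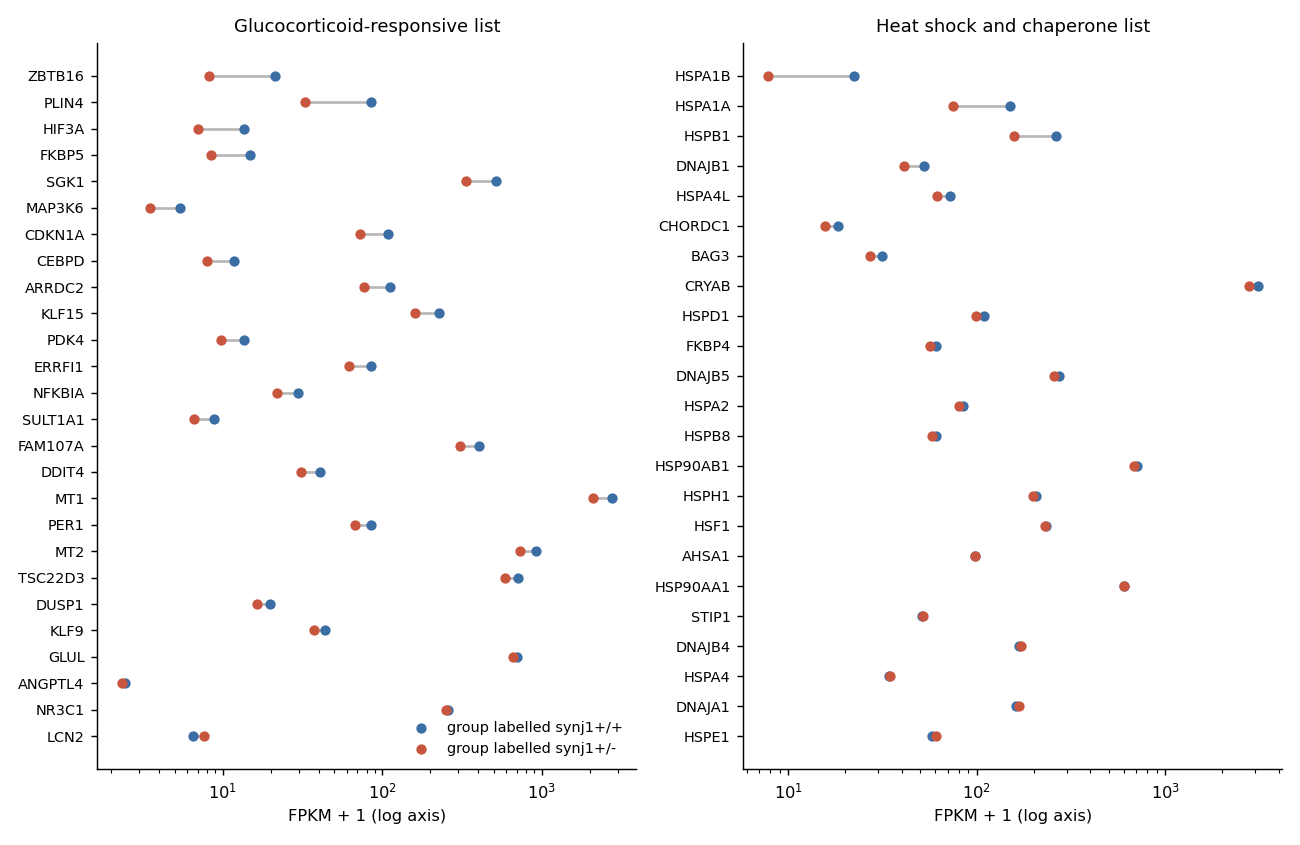
FPKM plus 1 (horizontal, log axis) of every listed gene of the glucocorticoid-responsive list (left, 26 genes) and the heat shock list (right, 23 genes), blue for the group labelled synj1+/+ and red for the group labelled synj1+/-. On the left the red point lies left of the blue one in all genes but LCN2, and on the right the gap is wide for HSPA1B, HSPA1A and HSPB1 only.

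Short non-coding RNAs of the nucleus and of the secretory pathway stood out among the lower genes. The 7SL RNA is the scaffold of the signal recognition particle, which brings ribosomes to the endoplasmic reticulum, and it is made by RNA polymerase III without a poly(A) tail. Its gene copies RN7S1 and RN7S2 were 220 and 226 FPKM under the label synj1+/+ and 57.2 and 61.8 under the label synj1+/-, differences of -1.93 and -1.85. RN7SK, the RNA that holds the elongation factor P-TEFb inactive, was 32.6 and 8.81 (-1.78). RNU2-10, a copy of the U2 RNA of the spliceosome, was 23.4 and 1.37 (-3.37).

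By RefSeq class, 13 small nuclear, nucleolar, cytoplasmic, guide or RNase P RNA genes were listed. All 13 were lower under the label synj1+/-, 12 of them by 1.5-fold on the scale of FPKM plus 1, although only 4 passed the filter. Without the filter, 263 of all 13643 genes were lower by 1.5-fold. Some of the 13 had very low values, as SNORD17 at 1.32 and 0, where a fold means little. The summed FPKM of the 13 was 550 under the label synj1+/+ and 137 under the label synj1+/-. Most of both sums came from RN7S1 (220 and 57.2) and RN7S2 (226 and 61.8). RPPH1, the RNA of RNase P, was 13.5 and 5.74 (-1.11, under the filter), and 3 of the 13 were listed at 0 under the label synj1+/-. The proteins of the signal recognition particle did not follow. Its 10 protein and receptor genes lay between -0.12 for SRPR, at 20.6 and 18.8, and 0.17 for SRP14, at 70.8 and 80.0. The 5 listed histone genes, also made largely without a poly(A) tail, were all under the filter and lay between -0.34 and 0.06. The 99 long non-coding RNA genes passing the filter had a median of 0.05. The library kit, TruSeq RNA v2, selects polyadenylated RNA, and the part of that selection in these differences was not tested.

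The annotated transcripts of RN7S1 and RN7S2 (GENCODE) are identical, so the separate values of these copies cannot be told apart. They are therefore not independent members in the counts and sums of small RNA genes.

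**Figure D4:**
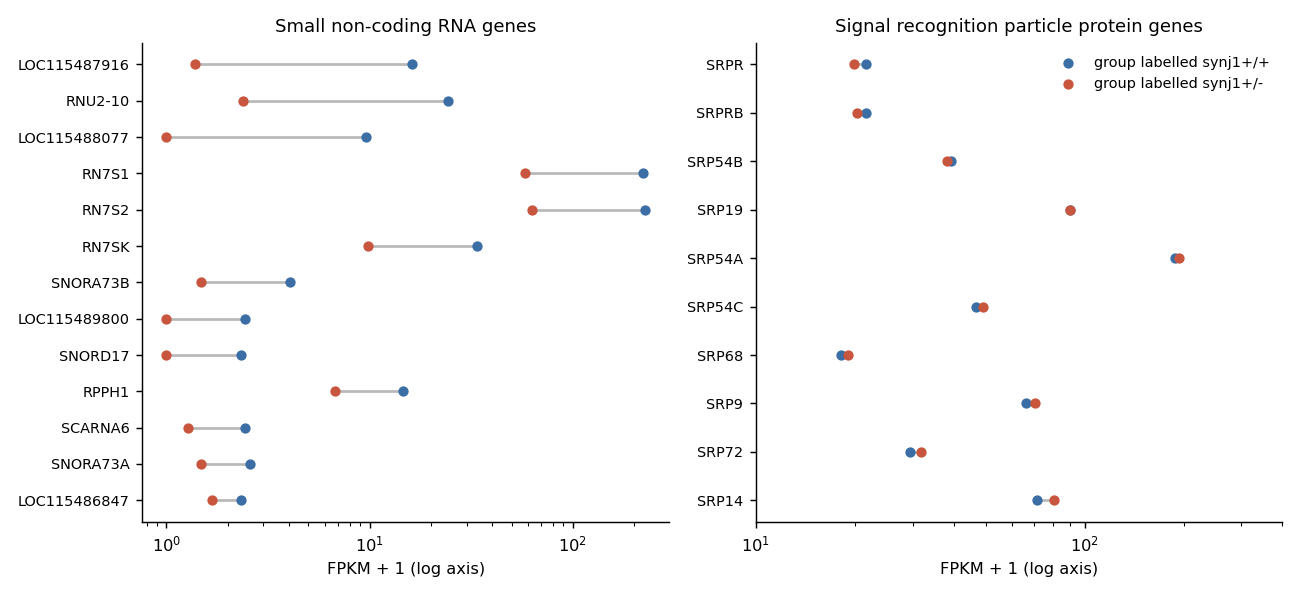
FPKM plus 1 (horizontal, log axis) of 13 small non-coding RNA genes (left) and of the 10 protein genes of the signal recognition particle and its receptor (right), blue for the group labelled synj1+/+ and red for the group labelled synj1+/-. All 13 RNAs lie to the left in red, those at 1 on the axis being listed at 0, and the protein genes lie close together.

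Lipid genes divided by function. Apolipoprotein E is the molecule that defines these mice, and the row of APOE (chr7:19696109-19699188, minus strand, GRCm38) was 766 FPKM under the label synj1+/+ and 548 under the label synj1+/- (-0.48). Both groups express human ApoE4 and the reads were aligned to the mouse genome, so how much of this row is the human transcript cannot be read from the table. ABCA1, which loads cholesterol onto ApoE, was 61.8 and 44.0 (-0.48), and PLIN2, a lipid droplet coat protein, was 94.7 and 72.3 (-0.38). Over 22 lipid transport and droplet genes the median was -0.12, with 17 lower. Cholesterol synthesis had the other sign, with small sizes. Of 21 genes 19 were higher, none past the looser limit, with a median of 0.09 and with HMGCS1, an early enzyme, at 268 and 325 (0.28). Fatty acid synthesis had a median of -0.03 over 18 genes, and its rate-limiting carboxylase ACACA was 195 and 135 (-0.53).

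Other phosphoinositide enzymes and endocytic partners of synaptojanin 1 lay near the median of all genes. Of 46 phosphoinositide enzymes passing the filter, 29 were higher and 17 lower, with a median of 0.04, and SYNJ1 was the only one higher past the looser limit. INPP5D, the SHIP1 phosphatase of blood cells and microglia, was 151 and 96.9 FPKM (-0.63). PLCE1, a phospholipase that cleaves PIP2, was 55.1 and 38.6 (-0.50), and PIK3CG, a PI3-kinase of leukocytes, was 15.3 and 11.7 (-0.36). SYNJ2, the paralogue, was 198 and 193 (-0.04). Of 31 endocytic partners the median was 0.02, with AAK1, a kinase of the clathrin adaptor, at 474 and 352 (-0.43), DNM2 at 1133 and 890 (-0.35) and FCHO1, which starts coated pits, at 112 and 144 (0.37). DNM1, the neuronal dynamin, was 10326 and 11207 (0.12).

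Lists of neuronal genes lay near the median of all genes, and the Hox list lay above it. The 16 neuron genes had a median of 0.04, 11 higher and 5 lower, with none past the looser limit. The motor neuron and cholinergic list had a median of 0.04 over 8 passing genes, 5 higher and 3 lower. Its members of largest difference were CALCA and RET. CALCA, which encodes the neuropeptide CGRP of motor and sensory neurons, was 175 and 264 FPKM (0.59). RET, a receptor for glial-derived growth factors, was 54.9 and 45.2 (-0.27). SLC5A7 (-0.13) and SLC18A3 (-0.11), genes of cholinergic neurons, were the other lower members that passed. Under the filter, CHAT (-0.35) and ISL2 (-0.41) were lower and MNX1 (0.09) and ISL1 (0.39) higher. Of 12 interneuron transcription factors, 9 were higher, with a median of 0.08. EBF3 was 288 and 407 (0.50) and EBF2 was 12.3 and 16.3 (0.38). Hox genes, whose combination marks position along the cord, had a median of 0.17 over 16 genes, 12 of them higher, 4 of these past the looser limit, and 4 lower. HOXB3 was 150 and 214 (0.51), HOXA9 was 35.6 and 49.6 (0.47) and HOXB8 was 676 and 824 (0.29). The 4 were HOXB3 and HOXC4, of anterior groups, and HOXA9 and HOXB9, of posterior groups. The exact level of each tissue piece is not in the labels, and its part in these values was not tested.

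Receptors of neurons appear among the genes of largest difference in each direction. GRIK1, a kainate glutamate receptor subunit, was 26.8 and 54.5 FPKM (0.99). OPRM1, the mu opioid receptor, was 20.4 and 5.15 (-1.80), and passed the filter only through the group labelled synj1+/+. ARHGEF33, a guanine nucleotide exchange factor, had the largest difference among the higher genes that are not hemoglobins, at 15.1 and 40.7 (1.37). GNG13, a G protein subunit, was 10.4 and 19.6 (0.85), and MAPK15, an atypical MAP kinase linked to cilia, was 35.8 and 62.1 (0.78).

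Genes of translation stayed near the median of all genes, and those of oxidative phosphorylation lay slightly above it. Of 65 nuclear genes of oxidative phosphorylation 53 were higher, 4 of them past the looser limit and none by 1.5-fold, with a median of 0.08. NDUFA4 was 32.0 and 44.6 FPKM (0.47) and NDUFS6 was 18.6 and 25.9 (0.46). The 66 cytosolic ribosomal protein genes had a median of 0.01 and RPS21 alone was past the looser limit, at 19.5 and 9.54 (-0.96). Myelin genes had a median of -0.05 over 16 genes with none past the looser limit, and oligodendrocyte precursors -0.13 over 13, with GPR17 at 66.4 and 48.8 (-0.44).

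Vessels and blood gave mixed values. The 21 endothelial genes passing the filter had a median of 0.04. PECAM1 was 26.4 and 26.7 FPKM and CLDN5, a tight junction protein, was 50.4 and 51.8. ABCG2, an efflux transporter of the blood-brain barrier, was 141 and 60.4 (-1.21), and MFSD2A, a lipid transporter that limits transcytosis at the barrier, was 27.2 and 17.6 (-0.60). EGFL7 was 59.9 and 81.5 (0.44) and SOX17 was 63.0 and 82.9 (0.39). The 8 pericyte and smooth muscle genes had a median of 0.20, with RGS5 at 56.7 and 69.1 (0.28). Hemoglobin genes were the furthest of all in the other direction. Of 11 erythroid genes 5 were listed, and all 5 were higher, with a summed FPKM of 248 under the label synj1+/+ and 1133 under the label synj1+/-. HBA-A1 was 103 and 468 (2.17), and the copies HBA-A1 and HBA-A2, and HBB-BS and HBB-BT, share much of their sequence. The part of blood in the tissue pieces in the other differences was not tested.

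Of 12 iron genes passing the filter, 8 were lower and 4 higher, with a median of -0.04. Past the looser limit 4 were lower and none higher. HMOX1, which breaks down heme, was 21.1 and 12.5 FPKM (-0.71), and FTL1, the light chain of ferritin, was 741 and 557 (-0.41). The metal transporter SLC39A14 was 334 and 254 (-0.40) and CP, ceruloplasmin, was 38.7 and 29.6 (-0.38). The heavy chain FTH1 was 12554 and 12445 (-0.01). Of 15 NRF2 targets passing the filter HMOX1 was the only one past 1.5-fold, and their median was -0.02. Of 19 circadian clock genes none was past 1.5-fold, with a median of 0.07, PER1 at -0.35 and ARNTL, a core activator, at 67.8 and 85.0 (0.32). The 14 immediate-early genes had a median of -0.04.

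Position in the genome was looked at because SYNJ1 itself went against its label. Within 5 Mb of SYNJ1, 33 other genes passed the filter, with a median of -0.08, 14 higher and 19 lower. GRIK1 was the only one past 1.5-fold. In 2 places, at least 4 neighbouring genes within 2 Mb were lower by 1.5-fold. These stretches were found by that rule, which fixes their direction, so their counts are a description only. On chr2:175061549-176927809, 15 predicted and zinc finger genes were listed and 9 passed the filter, of which 8 were lower and 6 by 1.5-fold. GM14308 was 31.3 and 9.04 FPKM (-1.69) and GM14295 was 22.2 and 7.80 (-1.40). On chr14:25923300-26207041, 5 of 5 passing genes were lower and 4 by 1.5-fold, with GM9780 at 45.7 and 16.6 (-1.41) and TMEM254A at 62.1 and 39.8 (-0.63). Whether reads are divided among similar copies in these places was not tested. By chromosome, the share of passing genes 1.5-fold lower ran up to 3.47% on chromosome 14, against 1.07% over all 10125 genes with a position.

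The same genes were read below the lesion, where the libraries may come from the same mice, so the values are only set side by side. SAA3 was 68.8 and 59.0 FPKM below, where above it was 45.3 and 1.19. RETNLA was 32.6 and 35.4 below, and ABCG2 was 85.0 and 68.1. HSPA1A was 59.4 and 57.7 below, SGK1 was 343 and 409, and APOE was 476 and 563, so these had no lower value, or hardly one, under the label synj1+/- there. PLIN4 was 99.6 and 38.0 below and C1QC 938 and 600, with differences of -1.37 and -0.65 that were close to those above. MMP12 was 63.0 and 21.3 below, opposite to its direction above. HBA-A1 was 255 and 329 below. RN7S1 was 112 and 65.7 below (-0.77) and RN7SK 13.5 and 5.93 (-1.07). OPRM1 and DEFB47 had no row below the lesion. DEFB47, a beta-defensin, was 29.0 FPKM above under the label synj1+/+ and listed at 0 under the label synj1+/-, so no fold is given.

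**Figure D5:**
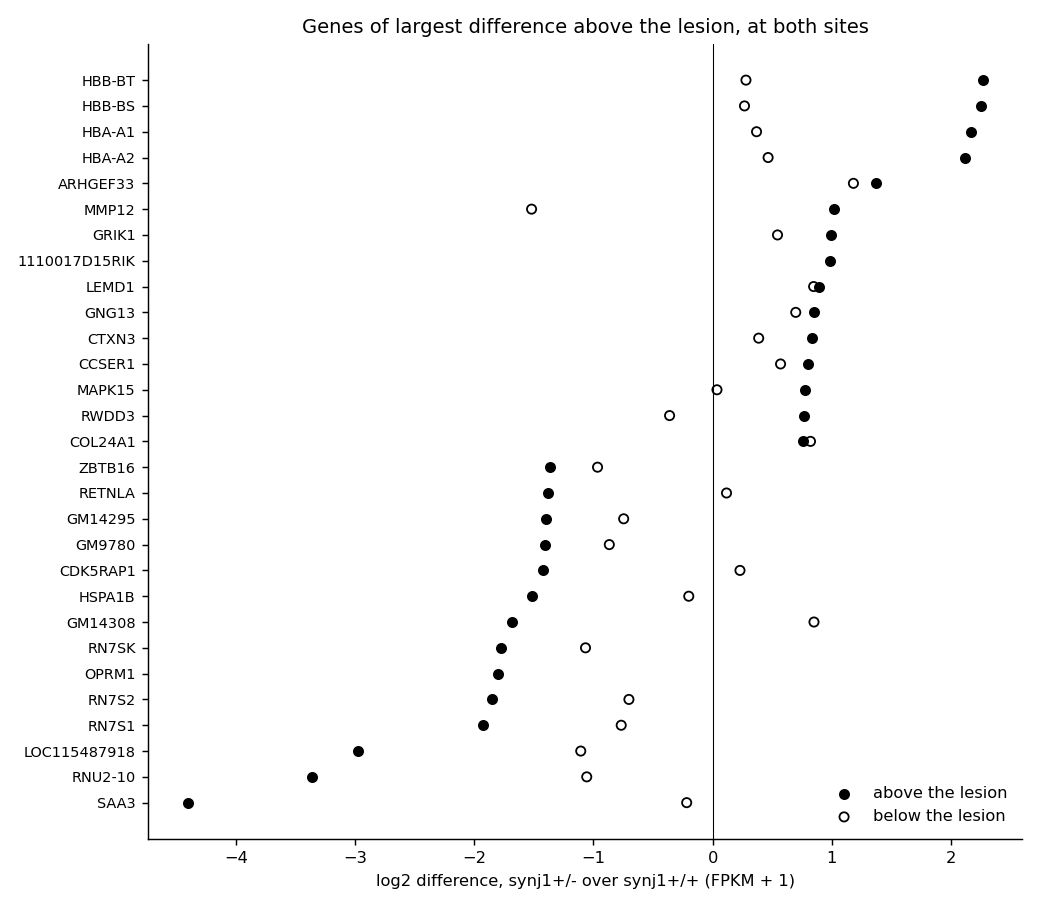
Difference (horizontal, log2 of FPKM plus 1, synj1+/- over synj1+/+) of the genes of largest difference above the lesion (filled) with the same gene below the lesion (open, where listed). DEFB47, listed at 0 in synj1+/-, is left out. The genes were chosen on the filled points, which are therefore wide by choice, and ARHGEF33, LEMD1 and COL24A1 lie close together at the sites while MMP12 and GM14308 lie on opposite sides of 0.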

How the data were processed

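RNA was sequenced from spinal cord in 12 libraries, 3 in each of 4 groups (ApoE4 synj1+/+ and ApoE4 synj1+/-, above and below the lesion), and the samples were grouped by genotype and site as labelled. The authors reduced the reads of each site's libraries at random to the smallest library, aligned them with STAR 2.5.4b, and summarised them as upper-quartile normalised FPKM with cufflinks. The submitters' processing notes name Cuffdiff 1.3.0 and GRCm38.p6. The deposited FPKM table holds 1 value per gene and group, pooled over 3 libraries. Its lowest value is exactly 1, so 1 was taken to have been added to each FPKM. The fold change, p-value and q-value columns of the authors' own comparison, and a shorter file that holds them for selected genes, were not used. The table has 0 columns of single libraries, so library depth and spread are unknown.

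For each gene the difference was log2 of the synj1+/- value over the synj1+/+ value, with that added 1 kept as the pseudocount, which makes the differences of low genes smaller. Genes with a mean FPKM of at least 12.2 (the 25th percentile) were described, and a 1.5-fold difference was the main call. A log2 difference of 0.32 was a second, looser limit. No test could be made from these pooled values. Named genes were SYNJ1, APOE, the 15 largest differences per direction, the 4 largest and the highest member of each of 53 gene lists, all members of lists of 6 or fewer genes, and genes past 1.5-fold within 5 Mb of SYNJ1. Other named genes were chosen after their values were seen. The comparison and the lists were chosen with earlier results of these data known. Gene positions and transcripts came from GENCODE vM21 (GRCm38), which matched 13427 symbols, and promoters from RefSeq (GRCm38.p6), 250 bases before to 50 after a start. RNA classes came from RefSeq and were found for 13533 genes. On simulated data, 200 genes given a 2-fold difference were all called and 0 others were, among 8157 genes. No noise was added, so this outcome was fixed. It checks the calculation only and gives no rate of missed or false calls. Alternatives tried were the filter, the pseudocount, the fold, 2 scalings and list means. Python 3.11.15, numpy 2.4.6, pandas 2.3.3 and matplotlib 3.10.9 were used. Some members of the lists, and 1 sequence, are not reported here.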

Additional observations from a re-analysis of the deposited data

How the results depend on the processing

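No replicate could be left out in turn, because each group is 1 pooled value. No paired analysis was possible because the table holds no value of a single library. At 1.5-fold, 43 genes were higher and 110 lower. Without the low-value filter the counts were 108 and 263, and with a mean FPKM at or over the median of all genes 11 and 41. With the 10th percentile of mean FPKM (4.69) as pseudocount, 22 were higher and the lower count stayed within 1.5 times. At 2-fold the counts were 6 and 29, and at the looser limit (log2 difference of 0.32) 291 and 583. No added 1, centring on the median, or equal totals left both counts within 1.5 times. SYNJ1 moved by less than 0.1 under every scaling and pseudocount.

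Of 342 list values under an alternative, 325 lay within 0.1 of the list's median. Without the filter the median moved to -0.0227 for Schwann cells, -0.018 for antigen presentation, 0.0933 for the cell cycle, 0.0916 for microRNA genes and -1.21 for snoRNA, scaRNA and snRNA genes, and the sign turned for neutrophil genes (0.053 over 3 genes, against -0.39 for 1). With the stricter filter it moved to -0.33 for complement, 0.14 for chemokines, 0.0674 for immediate-early and 0.0843 for predicted Gm genes. Means in place of medians gave -0.41 for the 7SL and signal recognition particle list, -0.21 for heat shock, -0.0775 for endothelium and -0.16 for predicted Gm genes. RNU2-10, the single passing gene of the snoRNA, scaRNA and snRNA list, moved to -4.10 without the added 1. With the larger pseudocount it moved to -2.21, and hemoglobin gave 2.10. The myeloid, astrocyte and glucocorticoid medians moved by less than 0.1 under every alternative. For 226 other named genes, 39 of 903 values moved by 0.1 or more, and no 1.5-fold difference changed sign.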

Other observations

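Several lists not described above had values near the median of all genes. TGF-beta signalling had a median of -0.06 over 20 genes, with the receptors TGFBR1 (81.3 and 63.3 FPKM in the groups labelled synj1+/+ and synj1+/-) and TGFBR2 (31.4 and 24.3) both lower, at -0.35 and -0.36. Potassium channels had a median of -0.04 over 31 genes, with KCNA1 at 33.1 and 24.5 (-0.42) and KCNT1 at 1679 and 2081 (0.31). Axon guidance had a median of -0.05 over 31 genes, with SEMA3A, a repellent of growing axons, at 40.2 and 30.8 (-0.37) and SLIT1 at 16.03 and 20.88 (0.36). Metalloproteinases and their inhibitors had a median of 0.00 over 11 genes, in which MMP12 was the only member past 1.5-fold.

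Ependymal genes had a median of -0.05 over 6 genes, and 5 more were under the filter. CFAP126, a protein of motile cilia, was 23.5 and 31.3 FPKM (0.40), and FOXJ1, the factor that drives these cilia, was 45.9 and 41.0 (-0.16). Schwann cell genes had a median of -0.15 over 3 genes and cell cycle genes -0.07 over 3. The host genes of neural microRNAs had a median of 0.21 over 4 genes, with MIR9-3HG at 48.6 and 64.0 (0.39). Predicted genes whose symbol starts with Gm had a median of -0.03 over 44 genes, 2 of them higher and 8 lower by 1.5-fold.

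The PU.1 site GAGGAAGT, bound by the factor of myeloid cells, was found on either strand in 294 of 8230 promoters (3.57%). It was held by 1 of 8 homeostatic microglia genes (SLCO2B1), by 1 of 11 disease-associated microglia genes (SPP1) and by 0 of 13 macrophage genes with a promoter. These windows reach 250 bases before the start and say nothing of the factor elsewhere.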
